A study of Mus musculus with 6 samples.

Results

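NCU10K cells, an immortalized mouse neural crest line, were transfected with control siRNA or Nedd4 siRNA, and RNA was collected 48 h later. Nedd4 encodes a ubiquitin ligase, and each siRNA was used on 3 biological replicates with 1 Affymetrix mouse gene array apiece. How the line was immortalized was not given in the sources used here. All cells were grown in serum-containing medium, and both groups went through the same RNAiMAX transfection. The Nedd4 siRNA had a single sequence and the control siRNA was a low GC one, so loss of Nedd4 cannot be told apart from other effects of that siRNA. The genes described here are 6 genes for subunits of γ-secretase, Psen2, Aph1a, Aph1b, Aph1c, Ncstn and Psenen, out of 19933 genes with a probeset of their own. They were listed as a family, and where a gene had more than 1 probeset that carried its symbol alone, the one with the highest mean over all 6 arrays was used. The genes were thus listed by family name, but the family was picked with results of these arrays in view. The probesets were selected on their mean level alone, which is given as a description. All 6 were measured and no filter on low signal was applied.

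γ-Secretase is a protease that sits within the membrane and cuts the transmembrane segment of proteins whose outer part has already been shed. It is best known for releasing the intracellular domain of Notch receptors and for its part in Alzheimer's disease. A presenilin such as Psen2 holds the catalytic aspartates. Nicastrin, from Ncstn, screens substrates by the size of their outer part. An Aph1 protein is the scaffold on which the complex is built, and PEN-2, from Psenen, is needed for the presenilin to be cut into its active form. In the neural crest, Notch signalling takes part in the choice between neuronal and glial fates.

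In cells treated with Nedd4 siRNA the mRNAs of Psen2, Aph1a and Aph1b fell, to between 54.1% and 65.1% of the level in control siRNA cells. Those of Aph1c, Ncstn and Psenen did not pass the test, with log2 fold changes of -0.16, 0.12 and 0.09. Of the 6 genes, 3 were lower and 0 higher at an adjusted p under 0.05 from limma, where 9.13% of all genes were called lower, 9.62% higher and 18.7% in either direction. By the methods' t-test, with the same adjustment, the count was 2, where 9.05% of all genes were called. Counted over all probesets, 16.1% were called by limma. The median log2 fold change was -0.39 over the 6 genes and -0.02 over all genes. The family was picked with results of these arrays in view, so these counts describe its genes and support nothing further.

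The targeted gene was checked first. Nedd4 lay at 12.24, 12.35 and 12.34 on the log2 scale with control siRNA and at 10.45, 10.94 and 10.68 with Nedd4 siRNA, in the order of replicates 1, 2 and 3. It thus stood at 32.5% of control, and every Nedd4 siRNA array was below every control array (exact permutation test, two-sided, p = 0.1, which is the lowest value this design can give). Array medians ranged from 6.28 to 6.35. Depth is not a property of arrays, and their number limits the precision. Of 10 neural crest markers all 10 had a mean over all 6 arrays above the median of all values, 6.33, among them Foxd3 and Tfap2a. So had 10304 of all 19933 genes. Twist1 did so only through the Nedd4 siRNA arrays, with means of 6.22 in control and 6.52 in Nedd4 siRNA cells. Of the measured markers of neurons 5 of 7 lay below that median, of Schwann cells and glia 2 of 6, and of smooth muscle cells and fibroblasts 4 of 8.

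The sequence before the start site is shown for Psen2 and Aph1a, which fell, and for the neighbouring pair Aph1b and Aph1c, of which the former fell and the latter did not pass. Each run holds the 250 bases before the start site that RefSeq annotates on GRCm38.p6, printed 5′ to 3′ on the strand of the gene. Capitals mark the GC box, GGGCGG or its complement CCGCCC, which SP and KLF factors bind. For Psen2, with 2 start sites listed, the first is shown (chr1:180256301-180256550, minus strand). The others are Aph1a (chr3:95893671-95893920, plus strand), Aph1b (chr9:66795424-66795673, minus strand) and Aph1c (chr9:66834707-66834956, minus strand).
Psen2: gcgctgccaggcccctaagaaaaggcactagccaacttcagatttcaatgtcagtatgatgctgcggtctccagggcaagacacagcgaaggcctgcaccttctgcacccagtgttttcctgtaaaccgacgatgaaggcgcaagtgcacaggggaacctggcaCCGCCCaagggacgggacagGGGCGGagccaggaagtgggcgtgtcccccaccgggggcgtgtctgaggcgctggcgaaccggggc
Aph1a: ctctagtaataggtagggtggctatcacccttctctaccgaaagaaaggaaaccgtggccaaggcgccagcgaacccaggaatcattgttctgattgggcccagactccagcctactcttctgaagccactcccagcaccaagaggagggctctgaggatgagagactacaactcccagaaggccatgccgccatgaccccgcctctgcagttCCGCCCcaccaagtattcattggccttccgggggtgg
Aph1b: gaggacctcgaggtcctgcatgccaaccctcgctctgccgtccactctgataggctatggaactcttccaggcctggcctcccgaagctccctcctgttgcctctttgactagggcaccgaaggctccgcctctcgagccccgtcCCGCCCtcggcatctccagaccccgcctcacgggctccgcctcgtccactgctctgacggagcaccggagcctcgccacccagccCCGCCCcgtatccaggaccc
Aph1c: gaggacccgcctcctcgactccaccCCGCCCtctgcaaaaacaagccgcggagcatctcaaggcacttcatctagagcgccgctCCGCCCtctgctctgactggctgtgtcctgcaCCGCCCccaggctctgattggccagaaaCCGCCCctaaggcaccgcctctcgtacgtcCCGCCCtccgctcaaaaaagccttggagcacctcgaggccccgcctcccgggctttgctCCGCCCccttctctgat
The GC box, searched on both strands, occurred 2 times in the window of Psen2, 1 time in that of Aph1a, 2 times in that of Aph1b and 6 times in that of Aph1c. It was absent from the window of the second Psen2 start site and from those of Ncstn and of both start sites of Psenen. Of 32851 windows of this length in the table, 32.7% held it, 16.7% held 2 or more and 0.886% held 6 or more. GC content was 62.8% for Psen2, 57.2% for Aph1a, 68.0% for Aph1b and 65.6% for Aph1c, and no TATA box (TATAAA or TTTATA, in 12.4% of windows) or E-box (CACGTG, in 6.02%) lay in these 4 windows. The window of the second Psen2 start site had a GC content of 44.8% and held 1 E-box and 1 core of the RBPJ motif (TGGGAA or TTCCCA, in 21.6% of windows). That of the second Psenen start site also held 1 RBPJ core, and Psenen did not pass the test. A match describes letters in this window and says nothing of a factor.

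**Figure D1:**
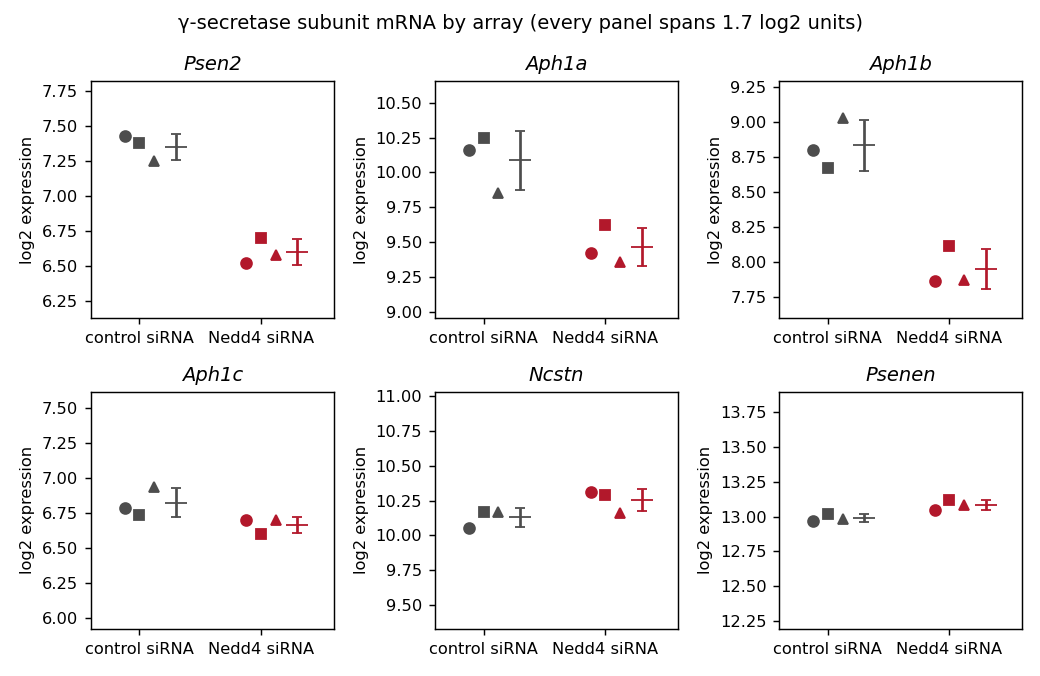
Log2 expression of the 6 γ-secretase genes in each array, control siRNA in grey and Nedd4 siRNA in red, with circles, squares and triangles for replicates 1, 2 and 3, and bars for mean and SD (n = 3 arrays). Every panel spans the same width of the log2 scale. The groups are apart in Psen2, Aph1a and Aph1b by gaps of 0.55, 0.23 and 0.56, and lie close together in Aph1c, Ncstn and Psenen.

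Psen2 encodes a presenilin, the protease subunit. Its values were 7.43, 7.38 and 7.25 with control siRNA and 6.52, 6.70 and 6.58 with Nedd4 siRNA, on the log2 scale and in the order of replicates 1, 2 and 3. The groups did not overlap, and the lowest control array was 0.55 above the highest Nedd4 siRNA array, while the 3 arrays of either group spanned 0.18. The mean was 7.35 ± 0.093 (SD, n = 3) in control and 6.60 ± 0.092 (SD, n = 3) in Nedd4 siRNA cells. The log2 fold change was -0.75 (SE 0.092, adjusted p = 0.000132, limma), a level 1.69-fold lower. It also passed by the methods' t-test (adjusted p = 0.0223). Of all 19933 genes, 1.78% had a lower log2 fold change. Psen2 is measured by 1 probeset, so no other probeset stands beside this value.

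Aph1a and Aph1b encode alternative scaffold subunits, and a complex holds a single Aph1 protein. Aph1a lay at 10.16, 10.25 and 9.85 with control siRNA and at 9.42, 9.62 and 9.36 with Nedd4 siRNA. The groups did not overlap, but the control arrays spanned 0.40, replicate 3 being the lowest, and the gap between groups was 0.23. The log2 fold change was -0.62 (SE 0.12, adjusted p = 0.00257, limma), 1.54-fold lower. Under the methods' t-test Aph1a missed the threshold (adjusted p = 0.0975), the lone setting of 17 alternatives in which it was not called. Its other probeset gave 9.83, 9.93 and 9.55 against 9.12, 9.31 and 9.10, which is a change of -0.59 on the log2 scale (SE 0.11, limma adjusted p = 0.00257). Both Aph1a probesets had the same order of arrays within the control group, and whether they read the same transcripts was not tested.

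Aph1b had the lowest log2 fold change of the 6 genes with all arrays, but not without control siRNA replicate 3, where it was -0.79 and that of Psen2 -0.81. Its values were 8.80, 8.67 and 9.03 in control arrays and 7.86, 8.11 and 7.87 in Nedd4 siRNA arrays, so that the groups were 0.56 apart. The means were 8.83 ± 0.18 (SD, n = 3) and 7.95 ± 0.14 (SD, n = 3). The log2 fold change of Aph1b was -0.89 (SE 0.11, adjusted p = 0.000162, limma), 1.85-fold lower, and 1.11% of all genes had a lower one. It passed by the methods' t-test with an adjusted p of 0.0421. Control replicate 3 was the highest control array for Aph1b and the lowest for Psen2 and Aph1a. Whether these genes varied together among control arrays was not tested. Among Nedd4 siRNA arrays, replicate 2 was the highest for Psen2, Aph1a and Aph1b alike, and it also held the most Nedd4 mRNA, at 10.94. Psenen, which did not pass, was highest in that array too, at 13.12, while Aph1c was lowest there, at 6.60, and Ncstn was neither. Over all probesets, the deviations of that array from its group mean went with those of control replicate 2 (r = 0.47). With 3 arrays the coincidence with Nedd4 was not tested.

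Aph1c is a close relative of Aph1b that mice carry in addition, and the pair are neighbours in the RefSeq annotation of GRCm38.p6, with 1 gene, the pseudogene Ppp1r2-ps4, listed between them. RefSeq lists Aph1c as a synonym of Aph1b and Aph1b as a synonym of Aph1c, so the names are interchanged in some sources. Here each was taken by its gene ID, 208117 for Aph1b and 68318 for Aph1c. Aph1c lay at 6.79, 6.74 and 6.94 with control siRNA and at 6.70, 6.60 and 6.70 with Nedd4 siRNA. All Nedd4 siRNA arrays were below all control arrays, by a gap of 0.04, but the log2 fold change of -0.16 (SE 0.090, 95% interval -0.35 to 0.04) did not pass the test (adjusted p = 0.332, limma). This interval holds no fall as large as that of Aph1b, at -0.89. The mean over all arrays was 6.745 for Aph1c, 8.39 for Aph1b and 6.98 for Psen2, where the median of all values was 6.33. Whether its low signal made the change of Aph1c smaller was not tested. Rab8b, the RefSeq neighbour on the far side of Aph1c, rose by 0.79 on the log2 scale (SE 0.099, limma adjusted p = 0.000156). It is named here after its value was seen, and values of the other coding neighbours of the pair are not given.

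**Figure D2:**
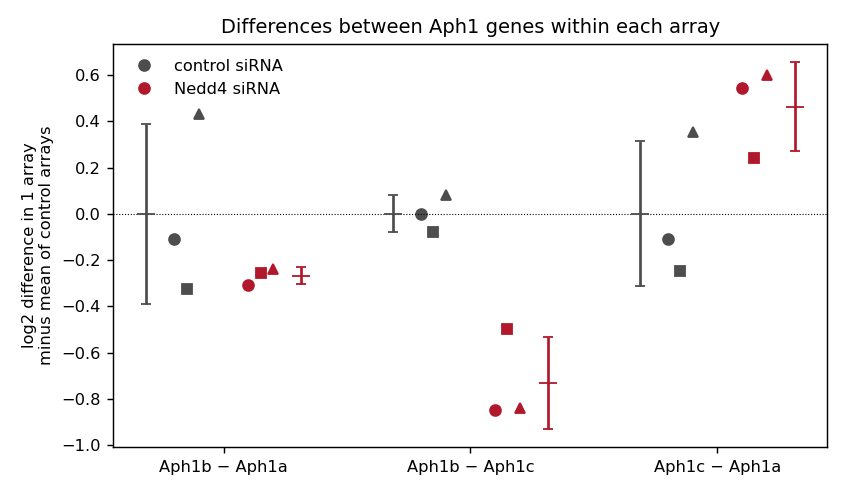
Differences between the log2 values of 2 Aph1 genes in the same array, each set to 0 at the mean of the control arrays, for control siRNA (grey) and Nedd4 siRNA (red). Symbols mark replicates 1 (circle), 2 (square) and 3 (triangle), and bars mean and SD (n = 3 arrays). Aph1b minus Aph1c lies between -0.85 and -0.50 in Nedd4 siRNA arrays and between -0.08 and 0.08 in control arrays.

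Whether the Aph1 genes changed unequally was examined on differences within each array, of which only the change between groups can be read, since each probeset has its own brightness. Relative to the mean of control arrays, Aph1b minus Aph1c was -0.85, -0.50 and -0.84 in Nedd4 siRNA replicates 1, 2 and 3, and 0.00, -0.08 and 0.08 in control replicates. The groups did not overlap, and the change was -0.73 (SE 0.12). Aph1b minus Aph1a changed by -0.27 (SE 0.23) with overlapping groups, and by -0.05 without control siRNA replicate 3. Aph1c minus Aph1a changed by 0.46 (SE 0.21), also with overlap. Two-sided exact permutation tests gave p = 0.1, 0.4 and 0.2 for these 3 differences, in that order, and 0.3, 0.4 and 0.3 after Benjamini-Hochberg adjustment over them. The smallest p the design allows is 0.1, so none can pass. Transcripts of Aph1b and Aph1c may share probe sequence, and Aph1c had the lower signal. The part of either in these differences was not tested.

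Ncstn and Psenen, for nicastrin and PEN-2, were slightly higher in mean and did not pass. Ncstn was measured at 10.05, 10.17 and 10.17 with control siRNA and at 10.31, 10.29 and 10.16 with Nedd4 siRNA. The groups overlapped, and the log2 fold change was 0.12 (SE 0.089, 95% interval -0.07 to 0.32, adjusted p = 0.474, limma). Psenen lay at 12.97, 13.02 and 12.98 in control and at 13.05, 13.12 and 13.08 in Nedd4 siRNA arrays. Each Nedd4 siRNA array exceeded each control array, though by a gap of 0.03 alone, and the log2 fold change of 0.09 (SE 0.083, 95% interval -0.09 to 0.27) did not pass (adjusted p = 0.588, limma). The other Psenen probeset gave 12.93, 12.97 and 12.92 against 13.01, 13.08 and 13.04, a difference of 0.10. RefSeq also lists a pseudogene, Psenen-ps, and which copy either probeset reads was not tested. The intervals of Ncstn and Psenen exclude falls of the size of Psen2, Aph1a or Aph1b. Counting direction alone, 5 of the 6 genes had groups that did not overlap, 4 with Nedd4 siRNA below and 1 above, where this held for 31.7% of all genes.

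**Figure D3:**
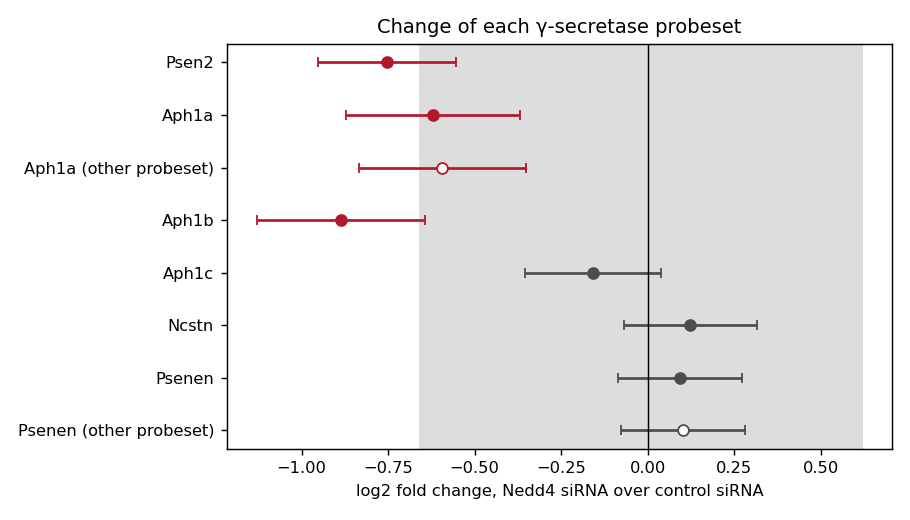
Log2 fold change, Nedd4 siRNA over control siRNA, of each probeset of the 6 γ-secretase genes, with its 95% interval from limma (3 arrays per group). Red marks an adjusted p under 0.05 and grey the others, open circles mark the probeset not used for the gene, and the shaded band holds the central 95% of all genes, from -0.66 to 0.62. Psen2 and Aph1b lie below the band and Aph1a, at -0.62, within its lower edge.

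The genes nearest in profile were taken as those whose 6 array values, each centred on the gene's own mean, had the smallest root mean square difference from the member. For Psen2 they were Ap2b1, a subunit of the clathrin adaptor AP-2 (root mean square difference 0.021 over 6 arrays), the translation factor subunit gene Eif3f (0.036) and the nuclear import receptor gene Kpna1 (0.037). For Aph1a they were Ubl3 (0.035), Fastk (0.038) and Slc35c2 (0.038), and for Aph1b the G protein subunit gene Gng7 (0.056), Sdhaf3 (0.064) and Nfatc3 (0.067). The measure is a description over arrays that fall into 2 groups. Each of these 9 genes fell too, as so small a difference from a fallen gene requires, with log2 fold changes from -0.93 for Sdhaf3 to -0.61 for Fastk.

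Around the complex, genes for sheddases and their escorts changed in both directions. Sheddases cut off the outer part of a membrane protein before γ-secretase acts. Of 15 measured genes, 4 were higher and 5 lower at an adjusted p under 0.05, or 60% against 18.7% of all genes, with a median log2 fold change of -0.16. Adam9, a membrane metalloprotease, lay at 9.10, 9.33 and 9.38 with control siRNA and at 11.07, 11.11 and 11.05 with Nedd4 siRNA, a log2 fold change of 1.81 (adjusted p = 4.03e-07, limma). Tspan15 and Tspan14, tetraspanins that escort ADAM10 to the cell surface, fell with -1.16 (adjusted p = 1.65e-05) and -0.96 (adjusted p = 4.20e-05), while Tspan5, of the same group, rose with 0.55 (adjusted p = 0.00109). The main Notch sheddase gene Adam10 (12.51, 12.41 and 12.33 against 12.23, 12.24 and 12.23) did not pass, with -0.18 (adjusted p = 0.211). Adam17, for the sheddase of TNF, rose with 0.40 (adjusted p = 0.00699), and Bace1 (-0.08, adjusted p = 0.731) did not pass. Adam10, Adam17 and Bace1 were chosen after their values were seen. The 5 lower genes were 3 without control siRNA replicate 2, without Nedd4 siRNA replicate 1 or without Nedd4 siRNA replicate 3, and 2 by the methods' t-test.

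Among 9 partners and modulators of γ-secretase, 2 were lower and 0 higher, or 22.2% called against 18.7% of all genes, a share near the background, with a median of -0.12. These were Arrb1 (-0.74, SE 0.098, adjusted p = 0.000234, limma) and Arrb2 (-0.45, SE 0.12, adjusted p = 0.017, limma), for the β-arrestins, which end G protein-coupled receptor signalling and have been found to bind Aph1 proteins. Arrb1 lay at 10.17, 10.15 and 9.91 in control and at 9.35, 9.25 and 9.41 in Nedd4 siRNA arrays. Arrb2, at 7.54, 7.80 and 7.32 against 7.05, 7.18 and 7.07, missed the threshold under the methods' t-test (adjusted p = 0.179). The count of 2 lower genes was 1 without control siRNA replicate 2 or Nedd4 siRNA replicate 3. Of 9 measured other proteases that cut within the membrane, a group that includes the presenilin relatives of the SPP family, 1 was lower, Sppl3 of the Golgi (-0.30, SE 0.090, adjusted p = 0.0396, limma), a share of 11.1% against 18.7% of all genes. This count was 2 without Nedd4 siRNA replicate 2 and 0 without any other single array, so the call of Sppl3 needs nearly all of the arrays.

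Substrates of γ-secretase went both ways. Of 47 measured, 6 were higher, 7 lower and 34 did not pass, or 27.7% called against 18.7% of all genes, with a median of -0.05. The receptor phosphatase gene Ptprk (0.82, adjusted p = 8.20e-05), the syndecan gene Sdc2 (0.79, adjusted p = 0.000125) and the ephrin gene Efnb2 (0.77, adjusted p = 0.000157) rose from limma, and the receptor phosphatase gene Ptprf fell (-0.69, adjusted p = 0.000219). Notch1, at 8.81, 8.94 and 8.65 against 9.02, 8.85 and 8.80, did not pass (0.09, adjusted p = 0.698), nor did Notch3 (-0.05, adjusted p = 0.851). Notch2 fell (-0.38, adjusted p = 0.015) and Notch4 rose (0.32, adjusted p = 0.0411) by limma, and both missed the threshold under the methods' t-test (adjusted p = 0.0964 and 0.15). Jag1, of the same list, fell by -0.47 and passed by limma (adjusted p = 0.00168) and by the methods' t-test (adjusted p = 0.00953). Jag2 and Dll1 did not pass by either. These Notch, Jag and Dll1 genes were chosen after their values were seen. The 7 lower substrates were 3 without control siRNA replicate 2 or Nedd4 siRNA replicate 3 and 4 without control siRNA replicate 3 or Nedd4 siRNA replicate 1. Of 12 nuclear factors and targets of Notch signalling 1 was lower, the coactivator gene Maml2 (-0.34, SE 0.090, adjusted p = 0.0203, limma), and 0 were higher, a share of 8.33% against 18.7% of all genes. That count was 0 without control siRNA replicate 3, Nedd4 siRNA replicate 1 or Nedd4 siRNA replicate 2, and Maml2 missed the threshold under the methods' t-test (adjusted p = 0.0704). The target gene Hes1, chosen after its values were seen, lay at 9.44, 9.38 and 9.39 against 9.46, 9.37 and 9.17 (-0.07, adjusted p = 0.763).

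**Figure D4:**
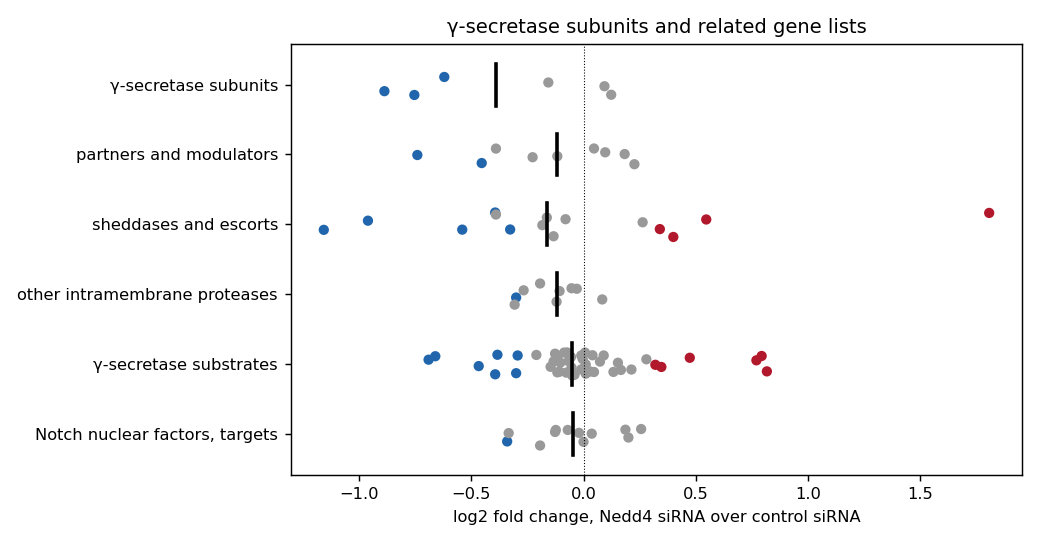
Log2 fold change, Nedd4 siRNA over control siRNA, of each measured gene of the γ-secretase subunits and 5 related lists. A point stands for 1 gene, drawn in red where limma called it higher, in blue where it was called lower and in grey otherwise, with vertical scatter to keep points apart, and each black bar is the median of its list, from -0.39 for the subunits to -0.045 for the Notch factors and targets. Adam9, at 1.81, is the point farthest to the right.

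Markers of cell types moved as well, read here against 9.13% of all genes called lower and 9.62% called higher. Of 10 neural crest markers 6 were lower and 2 higher, and their mean log2 level ranged from 9.47 to 9.55 in control and from 9.18 to 9.30 in Nedd4 siRNA arrays. Of 8 smooth muscle and fibroblast markers 3 were higher and 0 lower, with mean levels from 6.81 to 6.88 and from 7.09 to 7.19. Pdgfra (0.81, adjusted p = 4.98e-05), Dcn (0.58, adjusted p = 0.000439) and Pdgfrb (0.54, adjusted p = 0.00129) rose by limma. Acta2, Myh11, Cnn1, Tagln and Lum did not pass. Neuronal markers had 2 of 7 higher and glial ones 1 of 6 higher and 1 lower. Their part in the falls of Psen2, Aph1a and Aph1b was not tested, and fewer cells of a type cannot be told apart from less RNA per cell in these samples.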

How the data were processed

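RNA of 6 cultures, 3 per siRNA, was measured on Affymetrix mouse gene arrays from 300 ng of total RNA. The authors deposited log2 expression values, to 2 decimals, made in Partek (version 6.5 per the submitters' processing notes) after background correction by RMA and correction for GC content. The genome build was not given in the sources used here. No further normalization was applied. Of 28440 probesets, 21780 carried 1 gene symbol, 1618 several and 5042 none, and 21689 of those with 1 symbol matched RefSeq by gene ID, with 0 symbols changed.

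Nedd4 siRNA was compared with control siRNA by limma 3.58.1 in R 4.3.3 (lmFit and eBayes, no covariate), with Benjamini-Hochberg adjustment over all probesets at 0.05, after the test was tested on simulated data. Background shares count 1 probeset per gene. The methods name an ANOVA, here the methods' t-test. Python 3.11.15, pandas 2.3.3 and Matplotlib 3.10.9 served for sequences and figures. Named genes were the 6 members, Nedd4, up to 4 called genes of smallest p per list and 3 nearest profiles per called member. Adam10, Adam17, Bace1, Notch1, Notch2, Notch3, Notch4, Hes1, Rab8b and the pseudogenes were named outside this rule, after values were seen. The same holds for Jag1, Jag2, Dll1, Twist1, Acta2, Myh11, Cnn1, Tagln and Lum. Members and lists were chosen with earlier results of these data known. Some listed genes are not reported here. Other settings tried were that ANOVA, moderated variances with trend and robust options, weights per array, a replicate block, quantile or median scaling, removal of dim probesets at 2 cut-offs (the stricter dropped 50%), restriction to probesets of a single symbol, averaging of probesets per gene, a threshold of 0.01, and omission of each array in turn.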

Additional observations from a re-analysis of the deposited data

How the results depend on the processing

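All 6 genes kept their direction under the 17 alternatives, though several of these could not change it. The methods' t-test, trend and robust options, the replicate block, restriction of the probesets and the threshold of 0.01 left each fold change as it was. In each alternative 3 subunits were lower and 0 higher, except by the methods' t-test, where Aph1a (log2 fold change -0.62, adjusted p = 0.0975) did not pass. Its adjusted p in limma ran from 0.00141 to 0.0162 with 1 array left out. The related lists depended more on the setting, and the cause was not tested. By the methods' t-test, partners and modulators had 1 higher and 1 lower, sheddases and escorts 2 lower, other intramembrane proteases 0 lower, substrates 4 lower and Notch factors and targets 0 lower, with 2134 probesets called in place of 4579. At an adjusted p under 0.01 the lower counts were 1, 3, 0, 3 and 0 in the same order, with 2881 probesets. With trend and robust, 1 partner was higher. Array weights gave 2 lower intramembrane proteases and 1 higher and 2 lower Notch genes. The count of lower intramembrane proteases was 2 with quantile normalization, with only 1-symbol probesets and with the mean of probesets (which also gave 2 lower Notch genes), 3 without the dimmest 50% of probesets and 0 with median centring. Same-numbered arrays of the groups deviated together in 1 of 3 pairs (r = -0.01, 0.47 and -0.01 over 28440 probesets), and not every array correlated best with its own number, so the numbers were not taken as a pairing. With the replicate block 4962 probesets were called, 3 subunits were lower (Aph1a adjusted p = 0.0012, limma) and 0 intramembrane proteases. Leaving out 1 array, probesets called ranged from 2962, without Nedd4 siRNA replicate 1, to 4312. Lower counts ranged from 3 to 3 for subunits, 1 to 3 for partners, 3 to 5 for sheddases, 0 to 2 for intramembrane proteases, 3 to 7 for substrates and 0 to 1 for Notch genes. Higher counts ranged from 0 to 0 for partners, 3 to 4 for sheddases, 4 to 7 for substrates and 0 to 1 for Notch genes. The change of Aph1b minus Aph1a ranged from -0.43 to -0.05, of Aph1b minus Aph1c from -0.845 to -0.67 and of Aph1c minus Aph1a from 0.34 to 0.64. With 3 arrays per group, the 95% intervals of Aph1c, Ncstn and Psenen from limma each held 0.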
